A study of Homo sapiens with 6 samples.

Results

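The genes described here are the metalloproteases of the MMP, ADAM and ADAMTS families and their TIMP inhibitors, as measured in ARPE-19 cells given the kinase inhibitor SRPIN803. Members were taken by gene symbol, with antisense genes and pseudogenes left out, and each was represented by its brightest probe set among those annotated to that symbol alone. This gave 62 of the 19775 genes with a probe set of their own: 22 MMP, 18 ADAM, 18 ADAMTS and 4 TIMP genes. A further 4 coding genes of the families (ADAM7, ADAM29, ADAMTS7 and MMP23B) had no probe set annotated to them alone and were not analysed here. The study compared 3 arrays of cells treated with SRPIN803 at 10 µM for 4 h with 3 arrays of cells given 0.1% DMSO for the same time. The sample labels used here give no DMSO percentage for the SRPIN803 arrays. All cells were ARPE-19, an established human line from retinal pigment epithelium, grown in medium with serum, and no other treatment or genetic change is given. The compound is known as an inhibitor of CK2 and of SRPK1, a kinase that phosphorylates splicing factors. The question here is which protease and inhibitor transcripts had changed by 4 h.

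Matrix metalloproteases (MMPs) are zinc-dependent endopeptidases, secreted or held at the cell surface, that cleave collagens and other matrix proteins. ADAM proteases are membrane-anchored and shed the outer domains of growth factors, adhesion molecules and Notch receptors, while ADAMTS proteases are secreted and trim proteoglycans, procollagens and other matrix proteins. TIMPs bind and block the active site of many of these enzymes. In the eye the retinal pigment epithelium uses them to turn over Bruch's membrane, and mutations of TIMP3 cause Sorsby fundus dystrophy.

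The 6 arrays had medians of 5.25 to 5.28 (log2). Pearson's r over all probe sets was 0.996 to 0.998 for arrays of the same group and 0.994 to 0.996 for arrays of different groups. Of the 11 measured markers of retinal pigment epithelium, 8 had a mean at or above the median probe set level of 5.26. RPE65, the visual cycle isomerase, was among the dim ones, at 2.24 in SRPIN803 and 2.42 in DMSO. TYRP1 (3.38 and 3.04) and LRAT (2.85 and 2.81) were dim too. The pigment cell regulator MITF averaged 10.40 ± 0.07 and 10.05 ± 0.09 (log2, SD, n = 3 each), and was the 1 of these 11 markers that was called (limma's adjusted p = 0.0312). At an unadjusted p under 0.05, limma gave 2 of the 11, MITF and OTX2. OTX2 was 0.17 ± 0.06 higher in SRPIN803 (log2, limma's standard error), without overlap of the groups. No marker of endothelium or leukocytes was called (0 of 4 and 0 of 4, and likewise 0 at an unadjusted p under 0.05, limma), and their means ran from 2.66 to 6.38 in SRPIN803 and from 2.64 to 6.35 in DMSO. Markers of epithelium (0 of 5), fibroblasts or mesenchyme (0 of 6) and photoreceptors (0 of 3) were not called either. Of these, 1 photoreceptor marker had an unadjusted p under 0.05 in limma. In SRPIN803 the epithelial means ran from 3.86 to 13.74, the mesenchymal from 2.82 to 14.45 and the photoreceptor from 4.84 to 5.42. Of the 62 members 31 had a mean at or above the median level, which serves only as a mark for dim probe sets, since no detection calls were used. The brightness of different probe sets is not comparable, so levels below are compared only between groups.

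The secreted ADAMTS proteases ADAMTS1, ADAMTS9 and ADAMTS5 were lower in SRPIN803 than in DMSO, by 1.64-fold, 1.66-fold and 1.51-fold, and no other member passed the test in either direction. A gene was called at a Benjamini-Hochberg adjusted p under 0.05 in limma, adjusted over all 19775 genes. By family, 3 of 18 ADAMTS genes were called lower, against 0 of 22 MMP, 0 of 18 ADAM and 0 of 4 TIMP genes, and no member was called higher. The whole table had 5.84% of its genes called (3.46% higher, 2.37% lower), so that 3 of 62 members called in either direction is a share near the background. Of the 31 members at or above the median level 3 were called lower, beside 3.51% of all such genes in the same fit. At an unadjusted p under 0.05, limma gave 5 lower and 2 higher members, where 19.5% of all genes passed. Median log2 differences (SRPIN803 minus DMSO) were -0.01 for MMP, 0.0056 for ADAM, -0.01 for ADAMTS and 0.01 for TIMP genes, beside 0.02 for all genes. The groups of 3 arrays did not overlap in 9 of 62 members, 6 lower and 3 higher, and in 25.6% of all genes. Whether less RNA came from fewer of the cells or from less RNA per cell cannot be told apart in these bulk samples.

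**Figure D1:**
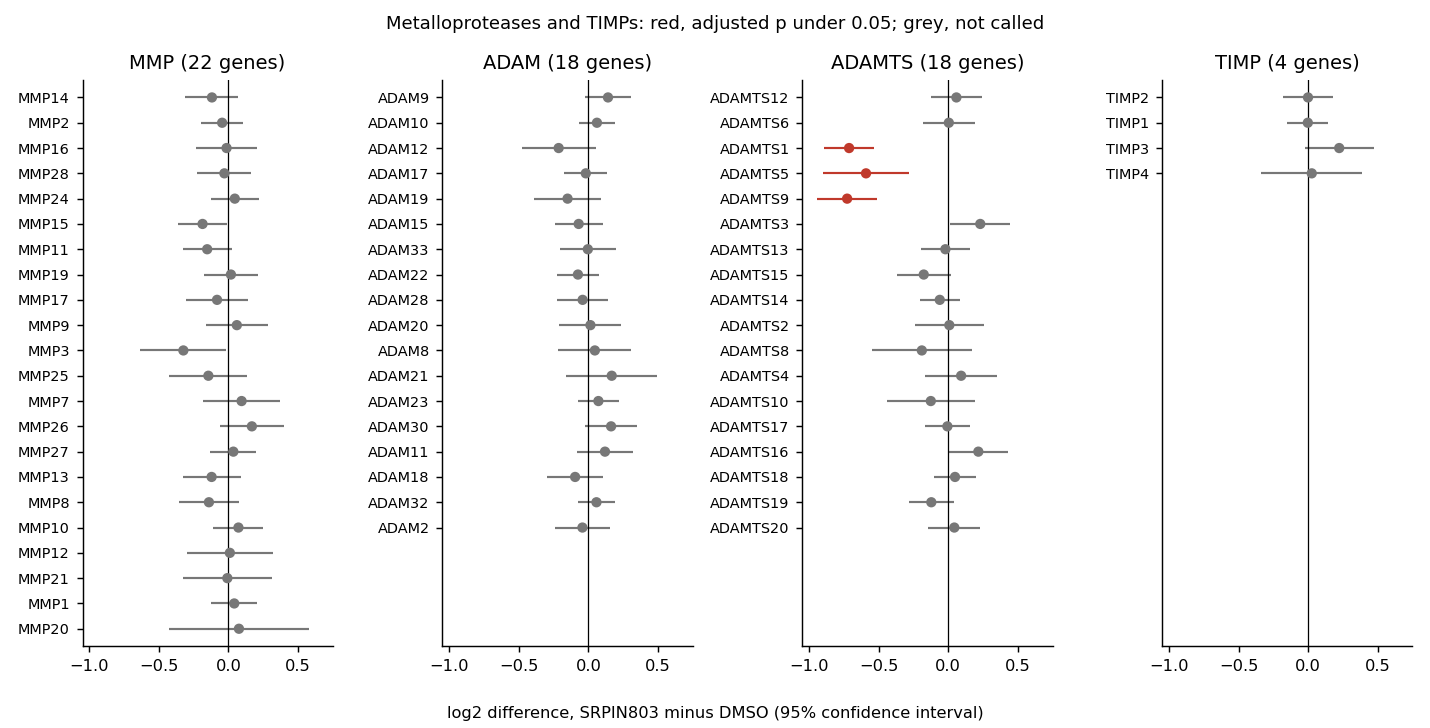
Log2 difference (SRPIN803 minus DMSO, x axis) of each of the 62 members with its 95% confidence interval, by family and from the brightest probe set at the top to the dimmest. ADAMTS1, ADAMTS5 and ADAMTS9, in red, lie at -0.71, -0.59 and -0.73, and the other 59 members, in grey, lie between -0.32 and 0.23.

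ADAMTS1, ADAMTS5 and ADAMTS9 belong with ADAMTS4, ADAMTS8, ADAMTS15 and ADAMTS20 to the branch of the family known for cleaving proteoglycans such as versican and aggrecan. ADAMTS1, which is also known as an inhibitor of angiogenesis, read 8.54, 8.74 and 8.52 (log2) in SRPIN803 replicates 1 to 3, against 9.28, 9.27 and 9.39 in the DMSO replicates. All 3 SRPIN803 arrays thus lay well below the lowest DMSO array. This is a 1.64-fold lower signal (95% confidence interval 1.45 to 1.86), a log2 difference of -0.71 ± 0.08 (limma's standard error, adjusted p = 0.00418). ADAMTS9, a proteoglycanase that is also known for a role in primary cilium formation, had 7.41, 7.62 and 7.42 in the SRPIN803 arrays, against 8.04, 8.30 and 8.28 in the DMSO arrays. Here too replicate 2 was the highest SRPIN803 array, and the groups did not overlap. The signal was 1.66-fold lower (1.43 to 1.92), at a log2 difference of -0.73 ± 0.09 with limma's adjusted p = 0.00645.

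ADAMTS5, the aggrecanase best known from cartilage, had 8.33, 8.59 and 8.80 in the SRPIN803 arrays, against 8.97, 9.24 and 9.30 in the DMSO arrays. Its groups did not overlap, but both spread more widely than those of ADAMTS1 (SD 0.24 and 0.18, against 0.12 and 0.06 for ADAMTS1 in SRPIN803 and DMSO). It was 1.51-fold lower (1.21 to 1.87), with a log2 difference of -0.59 ± 0.13 and limma's adjusted p = 0.0462. ADAMTS5 and ADAMTS1 are neighbours on chromosome 21, with 0 protein-coding genes between them in the reference gene table. ADAMTS9 lies on chromosome 3. The order of the arrays was not shared: ADAMTS1 and ADAMTS9 were highest among the SRPIN803 arrays in replicate 2, and ADAMTS5 in replicate 3.

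The other probe sets of these genes were set beside the main ones in a fit over all 54613 probe sets, where 1.03% were called lower and 10.1% were lower without overlap of the groups. Both probe sets of ADAMTS1 were called lower, at -0.71 ± 0.08 and -0.64 ± 0.10 (limma's adjusted p = 0.00933 and 0.0232). All 4 probe sets of ADAMTS5 had non-overlapping groups with SRPIN803 lower, at log2 differences of -0.66 to -0.45. Of these 4, 2 were called over all probe sets (limma's adjusted p = 0.0462 and 0.0303), but the brightest, which stands for the gene, was not (0.0770). For ADAMTS9 the main probe set and the next brightest, at -0.50 ± 0.09 and below the median level, were called (limma's adjusted p = 0.0141 and 0.0316). The 2 dimmest ADAMTS9 probe sets were not, at -0.42 ± 0.17 and -0.0038 ± 0.12, and the dimmest averaged 3.64 in both groups. Each of the 6 probe sets called over all probe sets lost its call in at least 1 fit of that kind with an array left out, where limma's adjusted p reached 0.0548 to 0.170.

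**Figure D2:**
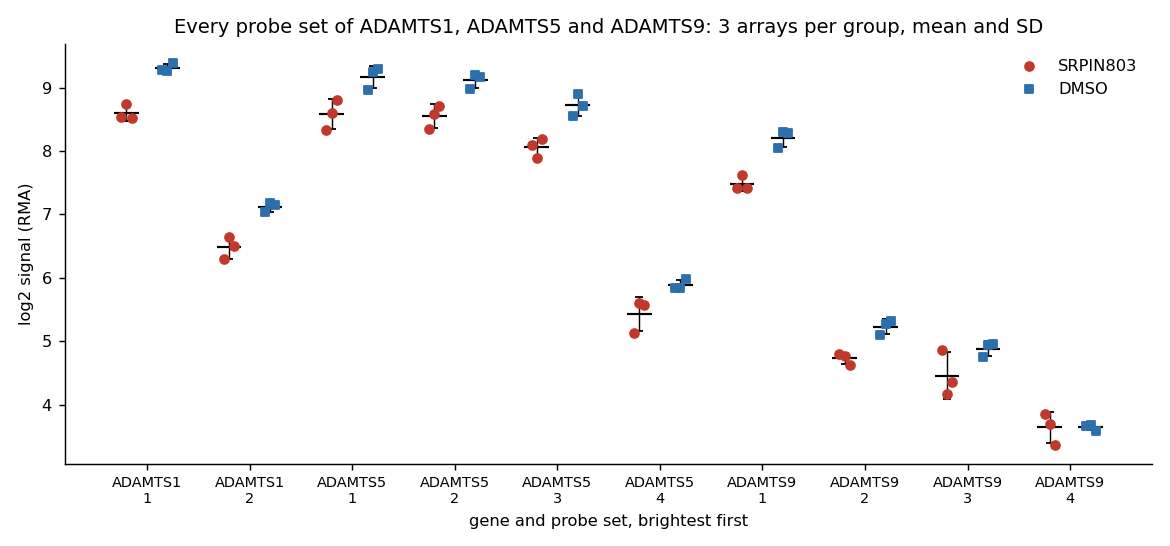
Log2 signal (y axis) of every probe set of ADAMTS1, ADAMTS5 and ADAMTS9 (x axis, brightest first within a gene), with points for single arrays (red circles SRPIN803, blue squares DMSO) and bars for the mean and SD of 3 arrays. The SRPIN803 points lie below all DMSO points in both ADAMTS1 probe sets, in all 4 of ADAMTS5 and in the 2 brightest of the 4 of ADAMTS9.

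In the fit with 1 probe set a gene, ADAMTS1 and ADAMTS9 passed the test in all 6 fits that each left out 1 array, at log2 differences of -0.78 to -0.67 and -0.81 to -0.68 and limma's adjusted p up to 0.0262 and 0.0382. ADAMTS5 kept its direction, at -0.71 to -0.47, and stayed called only without SRPIN803 replicate 3 (limma's adjusted p = 0.0422). It lost the call without SRPIN803 replicate 1 or 2 or any 1 DMSO replicate, with limma's adjusted p of 0.0552 to 0.163.

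**Figure D3:**
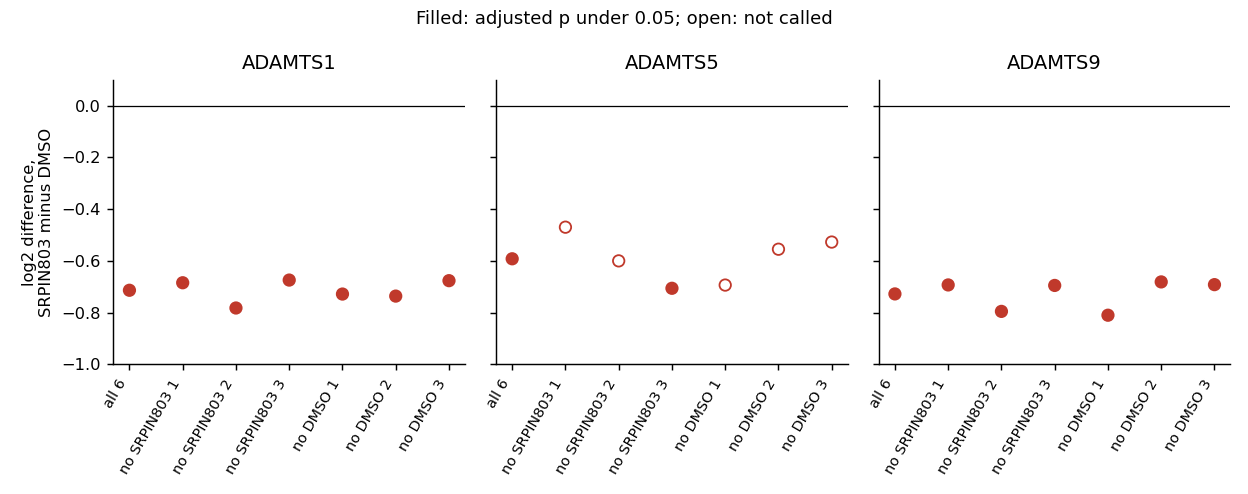
Log2 difference (SRPIN803 minus DMSO, y axis) of ADAMTS1, ADAMTS5 and ADAMTS9 with all 6 arrays and with each array left out in turn (x axis). Filled points are called (adjusted p under 0.05). All points lie at or below -0.47, and 5 of the 6 ADAMTS5 points with an array left out are open.

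The other 4 members of the proteoglycan-cleaving branch were not called, which does not show that they differ from the called ones. ADAMTS15, known as a suppressor of tumour growth in some tissues, averaged 6.37 ± 0.08 in SRPIN803 and 6.55 ± 0.14 in DMSO (log2, SD, n = 3 each). Its groups overlapped, and its log2 difference was -0.18 ± 0.08 (95% confidence interval -0.37 to 0.02). ADAMTS4, the other main aggrecanase, was at 0.09 ± 0.11, ADAMTS8 at -0.19 ± 0.15 and ADAMTS20 at 0.04 ± 0.08. These 3 had means below the median level, where RMA can compress differences, which was not tested here.

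Among the 3 procollagen N-propeptidases (ADAMTS2, ADAMTS3 and ADAMTS14), which remove the amino-terminal propeptide of fibrillar procollagens, 0 were called. ADAMTS3 had the smallest p of the 3 and the highest log2 difference of all members, 0.23 ± 0.09 (limma's adjusted p = 0.226). It is named because of that value, as is ADAMTS16 below. It read 7.16, 7.35 and 7.07 in the SRPIN803 arrays, against 6.86, 7.09 and 6.95 in the DMSO arrays. SRPIN803 replicate 3 fell within the DMSO range.

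Of the 8 remaining ADAMTS genes 0 were called. ADAMTS12, a protease of cartilage oligomeric matrix protein, averaged 10.30 ± 0.08 in SRPIN803 and 10.25 ± 0.11 in DMSO. Its log2 difference was 0.06 ± 0.08, with a 95% confidence interval of -0.12 to 0.24. ADAMTS6, which acts on fibrillin microfibrils, was at 0.0039 ± 0.080 on its brightest probe set (95% confidence interval -0.18 to 0.19). Both dimmer ADAMTS6 probe sets had lower means in SRPIN803. The dimmest was at -0.17 ± 0.15, with overlapping groups. The next brightest after the main one had 6.84, 7.04 and 6.73 in the SRPIN803 arrays, against 7.18, 7.47 and 7.20 in the DMSO arrays. The groups did not overlap there, and the log2 difference was -0.41 ± 0.11 (limma's adjusted p = 0.122 over all probe sets). ADAMTS16, at a level of 4.07, was at 0.22 ± 0.09 (limma's adjusted p = 0.255).

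No MMP was called in either direction, and 2 of the 22 passed an unadjusted p under 0.05 in limma, both lower. Only 9 of the 22 had a mean at or above the median level. MMP14, the membrane-type protease that activates pro-MMP2, read 9.42, 9.45 and 9.36 in the SRPIN803 arrays, against 9.69, 9.50 and 9.41 in the DMSO arrays. DMSO replicate 3 fell within the SRPIN803 range, and the log2 difference was -0.12 ± 0.08 (95% confidence interval -0.31 to 0.07). All 4 MMP14 probe sets had lower means in SRPIN803, by log2 differences of -0.22 to -0.11, with 0 called over all probe sets. MMP2, the gelatinase that cleaves basement membrane collagen, averaged 9.33 ± 0.08 in SRPIN803 and 9.37 ± 0.05 in DMSO. Its interval was narrow, -0.20 to 0.11 around a log2 difference of -0.05.

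On their brightest probe sets the other membrane-type MMPs lay on the same side or near 0. MMP15, which cleaves matrix and surface proteins, was at -0.19 ± 0.08 on its main probe set (limma's adjusted p = 0.228, groups not overlapping), and at 0.09 on its other probe set. MMP16 was at -0.01 ± 0.09, MMP17 at -0.08 ± 0.09, MMP24 at 0.05 ± 0.07 and MMP25 at -0.14 ± 0.12. The other probe set of MMP24, below the median level, was at 0.33 without overlap of the groups. That of MMP25, almost as bright as its main one (5.00 against 5.02), was at 0.20 with overlapping groups. Neither was called over all probe sets. In all 0 of 6 were called, and on the main probe sets 5 of 6 had lower means, beside 8677 of all 19775 genes.

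The secreted collagenases and stromelysins were mostly dim. MMP1, the interstitial collagenase, averaged 2.53 ± 0.11 in SRPIN803 and 2.48 ± 0.0076 in DMSO, values near the bottom of the scale, where the lowest signal of any probe set was 1.75. The collagenases MMP8 and MMP13 and the gelatinase MMP9 were also below the median level, with log2 differences of -0.14, -0.12 and 0.06. MMP3, the stromelysin that cleaves matrix proteins and activates other MMPs, had 5.11, 5.19 and 4.78 in the SRPIN803 arrays, against 5.57, 5.23 and 5.25 in the DMSO arrays. It was the lowest of the 59 members not called, at -0.32 ± 0.13 (limma's adjusted p = 0.233), and its groups did not overlap, although SRPIN803 replicates 1 and 2 lay just below the lowest DMSO array. MMP11, which is made by stromal cells around tumours, was at -0.15 ± 0.08 (limma's adjusted p = 0.326), also without overlap, and its 4 probe sets were split into 2 lower and 2 higher.

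No ADAM gene was called, and 0 of 18 passed even an unadjusted p under 0.05 in limma. ADAM17, the sheddase of TNF and of several EGF-family ligands, had 9.17, 9.17 and 9.21 in the SRPIN803 arrays, against 9.09, 9.29 and 9.22 in the DMSO arrays. ADAM10, which cleaves Notch receptors, had 11.63, 11.70 and 11.68 in the SRPIN803 arrays, against 11.61, 11.59 and 11.62 in the DMSO arrays. Its SRPIN803 values lay above all DMSO values, by a small margin. The log2 differences were -0.02 ± 0.07 for ADAM17 and 0.06 ± 0.05 for ADAM10, with 95% confidence intervals of -0.17 to 0.14 and -0.07 to 0.19. On the other ADAM10 probe sets, at 0.065 and 0.055, the groups overlapped.

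ADAM9, a widely expressed sheddase, was at 0.14 ± 0.07, with non-overlapping groups (12.70, 12.72 and 12.73 in SRPIN803, against 12.44, 12.62 and 12.66 in DMSO) and limma's adjusted p = 0.343. The other ADAM9 probe sets were at 0.12 and -0.08, with overlapping groups. ADAM12, a protease of insulin-like growth factor binding proteins, had the lowest log2 difference of the family, -0.21 ± 0.11 (limma's adjusted p = 0.370). It read 9.67, 10.05 and 10.03 in the SRPIN803 arrays, against 9.99, 10.19 and 10.19 in the DMSO arrays, so that SRPIN803 replicate 1 carried much of the difference. Without that array the log2 difference was -0.09, and all 5 ADAM12 probe sets had lower means, by -0.53 to -0.0037. The neighbours in role ADAM15 and ADAM19 were at -0.07 ± 0.07 and -0.15 ± 0.10. The brain proteins ADAM11, ADAM22 and ADAM23, which lack protease activity, ran from -0.08 to 0.12 on their brightest probe sets. The other ADAM11 probe set was at 0.33 without overlap of the groups (limma's adjusted p = 0.145 over all probe sets). Over all their probe sets ADAM22 ran from -0.20 to 0.29 and ADAM23 from -0.22 to 0.07, with 0 called. The 6 genes known from testis or sperm (ADAM2, ADAM18, ADAM20, ADAM21, ADAM30 and ADAM32) ran from -0.10 to 0.17, with ADAM30 at 0.16 ± 0.08 (limma's adjusted p = 0.321) and 1 of the 6 at or above the median level.

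No TIMP was called. TIMP1, which inhibits most soluble MMPs, had 11.02, 11.08 and 10.97 in the SRPIN803 arrays, against 11.09, 10.96 and 11.02 in the DMSO arrays. TIMP2, which also joins MMP14 in activating pro-MMP2, had 11.97, 12.10 and 12.17 in the SRPIN803 arrays, against 11.99, 12.10 and 12.16 in the DMSO arrays. Both sets of ranges overlapped almost fully, with log2 differences of -0.0030 ± 0.063 and -0.0016 ± 0.076 and 95% confidence intervals of -0.15 to 0.14 and -0.18 to 0.18.

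TIMP3, which binds the matrix and inhibits ADAM17 and several ADAMTS enzymes besides MMPs, had 9.93, 10.16 and 10.27 in the SRPIN803 arrays, against 9.74, 10.01 and 9.94 in the DMSO arrays. SRPIN803 replicate 1 fell within the DMSO range. Its log2 difference was 0.22 ± 0.11 (95% confidence interval -0.03 to 0.47, limma's adjusted p = 0.313). The 3 other TIMP3 probe sets were at 0.06, 0.05 and -0.10, all above the median level. TIMP4, below that level, was at 0.03 ± 0.16.

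**Figure D4:**
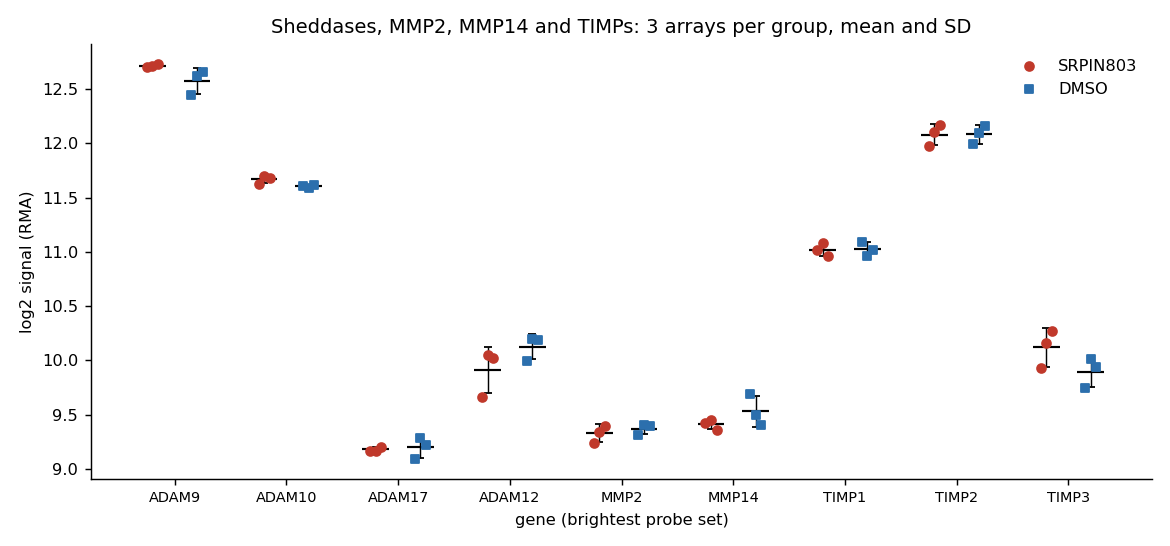
Log2 signal (y axis) of ADAM, MMP and TIMP genes with well-known roles (x axis, brightest probe set), with points for single arrays (red circles SRPIN803, blue squares DMSO) and bars for the mean and SD of 3 arrays. None of the 9 genes was called, and the points of both groups overlap in all but ADAM9 and ADAM10, whose differences are 0.14 and 0.06.

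Genes that act with these proteases were read from 6 lists in the same fit. Over 107 measured genes 7 were called lower and 0 higher, beside 2.37% and 3.46% of all genes. Most of the 107 had a mean at or above the median level, where 3.51% of all genes were called lower. In the fits that each left out 1 of the 6 arrays, 2 to 4 were called lower. The lists were chosen with earlier results of these data known, so their counts describe these genes and do not test for an excess. The 7 were found among shedding substrates (3 of 23), transcription factors known to act on MMP promoters (2 of 16), ADAM trafficking partners (1 of 13) and activators or anchors of MMPs (1 of 18). Median log2 differences were -0.06, -0.11, -0.18 and 0.05 in these lists, and 0.06 and 0.0057 in the lists of substrates in the matrix (0 of 19 called) and of related metzincins and ADAMTS-like proteins (0 of 18 called). At an unadjusted p under 0.05, limma gave 6 of 23 shedding substrates, 8 of 16 transcription factors, 7 of 13 trafficking partners, 3 of 18 activators or anchors and 1 gene in each of the last 2 lists, beside 19.5% of all genes.

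Among the transcription factors RUNX2, a regulator of bone formation that also acts on MMP13, had 8.73, 8.77 and 8.68 in the SRPIN803 arrays, against 9.36, 9.50 and 9.36 in the DMSO arrays. The arrays of each group lay close together and far from the other group. RUNX2 was 1.60-fold lower (95% confidence interval 1.44 to 1.78), at -0.68 ± 0.06 with limma's adjusted p = 0.00247, and passed in all 6 fits with an array left out. Its 5 other probe sets were not called over all probe sets, with log2 differences of -0.21 to 0.08, and 1 of them lay above the median level. The mean of all 6 was at -0.20 and was not called (limma's adjusted p = 0.0677). The AP-1 subunit JUN was the other factor called, at -0.32 ± 0.07 with limma's adjusted p = 0.0406. It lost the call in all 6 fits with an array left out (limma's adjusted p up to 0.131). Its 3 other probe sets were at -0.61, -0.57 and -0.32, all with non-overlapping groups, and the first 2 were called over all probe sets (limma's adjusted p = 0.0265 and 0.0212). The probe set that stands for JUN was not called there (limma's adjusted p = 0.0840). The mean of all 4 JUN probe sets was at -0.46 and was called (limma's adjusted p = 0.00720).

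Of the substrates shed by ADAMs, the EGF-family ligands HBEGF and TGFA and the guidance ligand EFNA5 fell. HBEGF, known as a substrate of ADAM17 and ADAM12, had 8.31, 8.68 and 8.47 in the SRPIN803 arrays, against 9.12, 9.27 and 9.38 in the DMSO arrays. Its log2 difference was -0.77 ± 0.11 (limma's adjusted p = 0.00942), and its 2 bright probe sets were at -0.77 and -0.75 while the 2 dim ones were at 0.17 and 0.13. The mean of all its probe sets was at -0.30 and was not called (limma's adjusted p = 0.0728). TGFA was at -0.35 ± 0.08 and EFNA5 at -0.26 ± 0.06 (limma's adjusted p = 0.0483 and 0.0433). The 2 other TGFA probe sets were at -0.05 and -0.13 with overlapping groups, and the mean of its 3 probe sets was at -0.18 and was not called (limma's adjusted p = 0.189). The 3 other EFNA5 probe sets were at -0.32 to -0.13, and the mean of its 4, at -0.24, was not called (limma's adjusted p = 0.0918). HBEGF passed in all 6 fits with an array left out, and TGFA and EFNA5 in 0 of 6 (limma's adjusted p up to 0.150 and 0.138).

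The sorting nexin gene SNX9, which is known to bind the tails of ADAM9 and ADAM15, was at -0.60 ± 0.14 (limma's adjusted p = 0.0483). Its other probe set was at -0.21 and was not called. The tissue plasminogen activator gene PLAT was at -0.40 ± 0.09 (limma's adjusted p = 0.0495). SNX9 and PLAT each stayed called only without SRPIN803 replicate 1, with limma's adjusted p up to 0.157 and 0.164 without another array.

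The matrix proteoglycan versican (VCAN), a substrate of ADAMTS1, ADAMTS5 and ADAMTS9, averaged 5.63 ± 0.11 in SRPIN803 and 5.41 ± 0.06 in DMSO. Its log2 difference of 0.22 ± 0.07 was not called (limma's adjusted p = 0.139), although its groups did not overlap. Its other probe sets were at 0.24 and 0.38 without overlap and at -0.05 and 0.10 with overlap, and were not called over all probe sets. The collagen gene COL1A1 was at -0.42 ± 0.19 (limma's adjusted p = 0.267), with a wide spread in both groups (SD 0.35 in SRPIN803 and 0.24 in DMSO). The other COL1A1 probe sets were at -0.47 and -0.46 without overlap and at -0.03 and 0.12 with overlap, and were not called over all probe sets. Among related proteins the ADAMTS-like papilin gene PAPLN had the smallest p, at 0.36 ± 0.10 with limma's adjusted p = 0.0713, followed by ADAMTSL3 at 0.13 ± 0.06 (0.318). PAPLN was called without SRPIN803 replicate 1, at 0.46 with limma's adjusted p = 0.0373. The other probe set of PAPLN was at 0.09 and that of ADAMTSL3 at -0.07, both with overlapping groups.

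**Figure D5:**
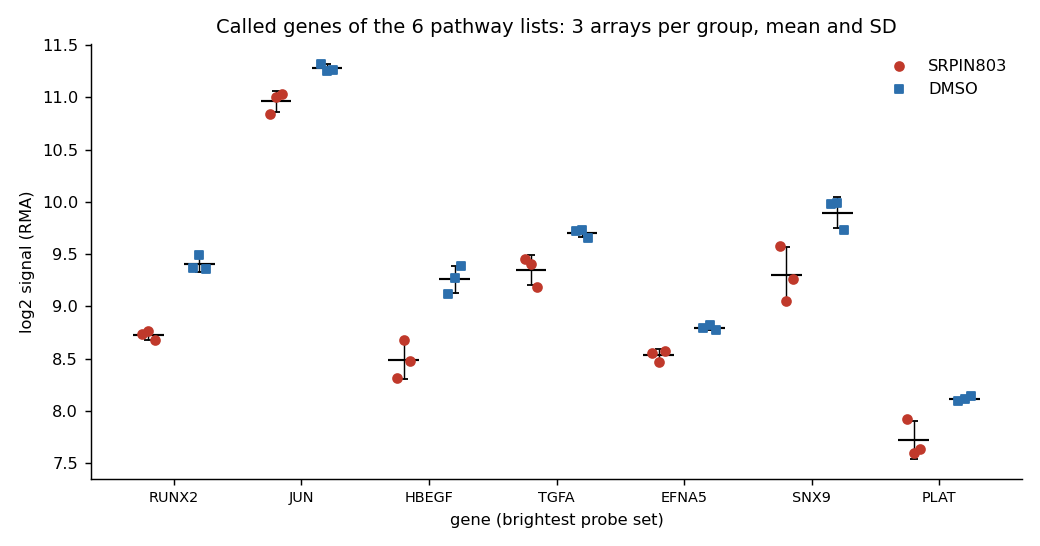
Log2 signal (y axis) of the 7 called genes of the pathway lists (x axis, brightest probe set), with points for single arrays (red circles SRPIN803, blue squares DMSO) and bars for the mean and SD of 3 arrays. All 7 are lower in SRPIN803 with no overlap, from RUNX2 and HBEGF at -0.68 and -0.77 to EFNA5 at -0.26.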

How the data were processed

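Expression in 6 samples was measured on Affymetrix 3' arrays. The deposited values are log2 signals, 1 per probe set and array, made with RMA by the authors per the submitters' processing notes, and were used with no further step. The sources used here do not give RMA's software or options. Ranked by value, the arrays stayed within 0.14 of each other at every rank, as after quantile normalization, which hides changes in total RNA. Gene names came from the platform annotation: of 54675 probe sets, 62 were controls, 41091 had 1 gene, 1801 had several and 11721 had none listed.

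Groups came from the titles. Whether replicates were separate cultures is not given, so p-values reflect only how far these arrays spread, and that spread may be technical. The test was limma's moderated one (version 3.58.1, R 4.3.3, functions lmFit and eBayes, 4 residual degrees of freedom, two-sided, Benjamini-Hochberg over all genes). Exact permutation over 3 and 3 arrays has a smallest p of 0.1 and was not used. Members, lists and tests were chosen with earlier results of these data known. Named were all called members, the 3 members of each family with the smallest p and the 3 brightest, all TIMPs, MMP1, MMP2, MMP3, MMP14, ADAM9, ADAM10, ADAM17 and ADAMTS1, and per list up to 4 called genes or else the 2 with the smallest p; other genes were named for their values or for their role. Grouping by role within families was made after the values were seen. The test was checked on simulated data. Alternatives were the replicate block, each array left out, filters on dim genes, other probe sets, other normalizations, variance models and thresholds. Plots used matplotlib 3.10.9 in Python 3.11.15. The number of arrays limits the precision.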

Additional observations from a re-analysis of the deposited data

How the results depend on the processing

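The count of 3 members called lower and 0 higher was 2 or 3 lower and 0 higher under every alternative run: 2 to 3 lower with 1 array left out, 2 in the fit over all probe sets (without ADAMTS5) and 2 without probe sets ending in _x_at or _s_at, where ADAMTS1 has none left. The replicate number as a replicate block gave 3 lower and 0 higher members, while the count over all genes was 689 against 1154 without it. Deviations of same-numbered arrays from their group means correlated at 0.179, -0.061 and 0.107. SRPIN803 replicate 2 correlated best with DMSO replicate 3 (0.035) and SRPIN803 replicate 3 with DMSO replicate 2 (0.127). The numbers were therefore not taken to pair the samples. The count over all genes was 324 to 687 with 1 array left out, 1905 among genes at or above the median level and 2036 with a variance trend and robust estimation together. Among the pathway lists 7 genes were called lower and 0 higher, against 2 to 4 lower and 0 to 1 higher with 1 array left out. Under the replicate block SNX9, PLAT, TGFA, EFNA5 and JUN were not called (limma's adjusted p = 0.0660, 0.0848, 0.0617, 0.0944 and 0.0904). In the fit over all probe sets the main probe sets of the same genes were not called either (limma's adjusted p = 0.0795, 0.0897, 0.0915, 0.100 and 0.0840).

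Family medians stayed near 0 except where few genes were left. That of the ADAM genes was -0.030 among genes at or above the median level, -0.044 at or above the 75th percentile (6 genes), 0.032 with the mean of all probe sets, 0.060 without _x_at and _s_at probe sets and -0.054 to 0.027 with 1 array left out. At or above the 75th percentile that of the ADAMTS genes was -0.59 (5 genes, 3 of them the called ones) and that of the MMP genes -0.082 (2 genes). The TIMP median was -0.015 to 0.074 with 1 array left out.

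Besides the ADAM and TIMP medians, signs turned in named genes that were not called, and in 0 called ones. ADAMTS6 was at -0.19 with the mean of all probe sets, -0.0081 with arrays centred on the median, -0.0056 with array weights and -0.042 to 0.077 with 1 array left out. MMP15 was at 0.089 without _x_at and _s_at probe sets, TIMP1 at 0.0092 with quantile normalization, TIMP2 at 0.00095 with the mean of all probe sets and TIMP4 at -0.014 with array weights. With 1 array left out ADAM17 ran from -0.072 to 0.025, MMP1 from -0.0042 to 0.11, MMP16 from -0.11 to 0.046, TIMP1 from -0.034 to 0.031, TIMP2 from -0.047 to 0.053 and TIMP4 from -0.15 to 0.12. The cause of these turns was not tested.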
